A study of Mus musculus with 2 samples.

Results

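The genes described here are 10 that mark enteroendocrine cells, the hormone-secreting cells scattered through the gut epithelium. They are the precursors of 8 peptide hormones (Gcg, Nts, Pyy, Cck, Sct, Insl5, Tac1, and Sst) and 2 granins (Chga and Chgb), taken as every probe set of the array whose annotation gave 1 of these symbols and no other. The 10 genes were read by 11 probe sets (2 for Tac1 and 1 for each of the others), out of 18193 genes and 45037 probe sets that were not controls. The WT pool held RNA of gut epithelial cells from 5 C57BL/6 mice (2 males and 3 females, 6 weeks old). The Lrrc19 KO pool held the same number of mice of the same sexes, age, and background, with the lrrc19 gene knocked out. All mice were kept under SPF conditions. Cells were freed from the intestine with EDTA, and CD4 cells, CD8 cells, dendritic cells, macrophages, and B cells were removed by magnetic sorting. The labels do not name the segment of the intestine, and which part of Lrrc19 was deleted is not stated in the study text used here. LRRC19 is a leucine-rich repeat receptor of gut epithelial cells, and the comparison asks how its loss bears on transcription in the intestine.

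Enteroendocrine cells arise from the same crypt stem cells as the absorptive cells and release peptides stored in dense-core granules when nutrients or bacterial products reach them. The hormone mix changes along the gut. L cells of the distal gut make GLP-1 and GLP-2 from the Gcg precursor together with PYY, and in the colon also INSL5, whereas cholecystokinin and secretin come mostly from the upper small intestine and neurotensin from the ileum. Somatostatin is made by D cells, and chromogranins A and B are granule proteins shared by most of these cells. Tac1 (the precursor of substance P) is expressed both in enterochromaffin cells and in enteric neurons, and Nts, Sst, and Cck also occur in neurons.

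Each genotype was measured on 1 array of pooled RNA. The spread between mice is therefore unknown, no test was possible, the number of arrays limits the precision, and every value below compares these pools without a replicate check. Values are probe set intensities in arbitrary units, and differences are on the log2 scale as Lrrc19 KO minus WT. The floor was the median of all probe sets, an intensity of 127, and 12518 genes reached it in at least 1 pool on their brightest probe set. Lrrc19 itself was 905 in WT and 212 in KO on its brighter probe set, and 391 and 20.9 on the other, which can match several transcripts. The scaling between the arrays is not known, and 5 other scalings were computed. Of these, centring on the hybridization spike-ins, all 18 of which were brighter on the KO array, lowered every log2 difference by 0.50, so that any difference between 0 and 0.50 turned negative. The amounts subtracted from the KO values by the other constant scalings were between -0.09 and 0.08.

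Over the hormone and granin genes, 9 of 10 reached the floor, and 8 of these 9 had a lower intensity in the Lrrc19 KO pool. Among the 8 was Pyy at -0.01, which was above 0 under 2 of the 6 scalings. Of the 12518 genes, 47.9% were lower by any amount. None of the 9 differed at least 2-fold in the values as deposited, against 0.967% of all genes in either direction, 0.559% in the higher direction, and 0.407% in the lower direction. At 1.5-fold, a limit chosen after the values were seen, 5 of 9 were lower (Gcg, Nts, Chgb, Sct, and Chga) and none was higher, against 3.40% of all genes lower and 2.78% higher. The members had been chosen with earlier results of these data known, so the counts and medians beside all genes are a description. This count was 2 of 9 with the reference genes and 8 of 10 with the spike-ins, where Cck also reached the floor. The share of all genes past 1.5-fold was computed only for the values as deposited. The median log2 difference was -0.60 over the 9 genes and 0.01 over all genes. That of the members was below 0 under all 6 scalings, from -1.01 with the spike-ins to -0.51 with the reference genes. Less RNA of a hormone per cell and fewer cells of that type cannot be told apart in pooled RNA.

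**Figure D1:**
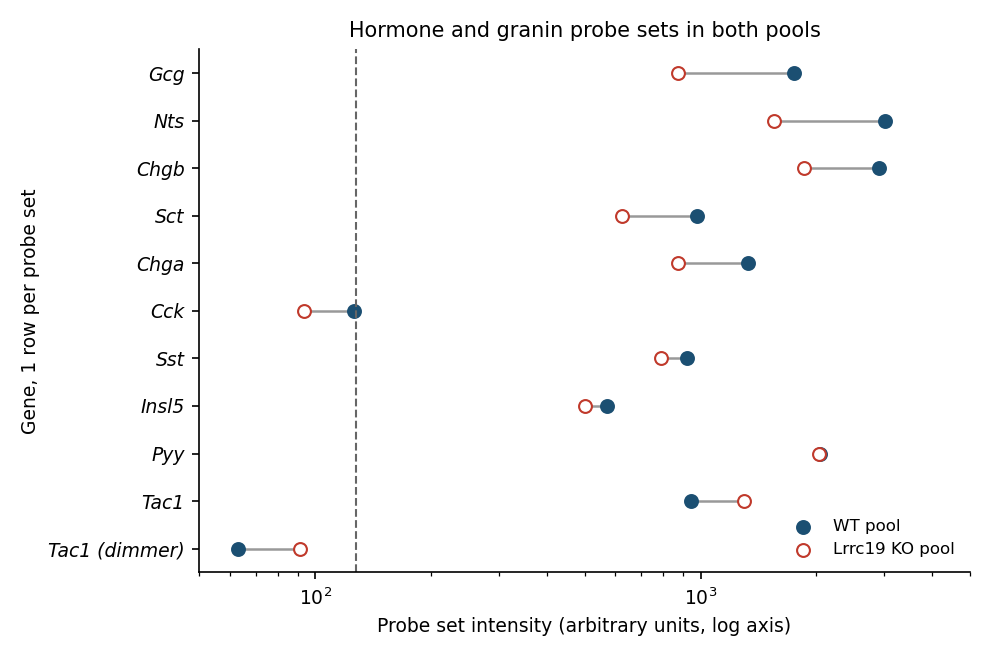
Each row is a probe set of the 10 genes, drawn at its intensity (arbitrary units on a log axis) in WT (filled points) and in Lrrc19 KO (open points). Error bars are absent because there was 1 array for each genotype, and a dashed line marks 127, the floor. Gcg and Nts are the farthest apart, the points of Pyy lie on each other (2046 and 2033), Cck is under the floor in both pools, and both probe sets of Tac1 are brighter in KO in these values as deposited, an order that turned for the brighter one (-0.04) with the spike-in scaling.

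The hormone genes with the largest differences were Gcg and Nts. The intensity of Gcg, which encodes proglucagon, the source of the incretin GLP-1 and the intestinal growth factor GLP-2, was 1745 in WT and 876 in Lrrc19 KO. The difference was -0.99, or 1.99-fold lower in KO. The intensity of Nts, which encodes neurotensin, a peptide released after fat enters the gut, was 3013 in WT and 1549 in KO. Its difference was -0.96, or 1.95-fold lower. Both genes thus stood at slightly more than 50% of their WT intensity, just short of the 2-fold limit. Both passed that limit under 3 of the 6 scalings, and the range over the scalings was -1.49 to -0.91 for Gcg and -1.46 to -0.87 for Nts. Of all genes at or above the floor, 53 were at least as far below 0 as Gcg and 63 as far as Nts.

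The granins and secretin had the next largest differences, which were close to each other. Chgb was 2909.9 in WT and 1855 in KO, or 1.57-fold lower (a difference of -0.65). Chga was 1327 in WT and 876 in KO, or 1.52-fold lower (-0.60). These granins are acidic proteins that help to pack hormones into the granule, and Chga is the usual histological marker of the whole lineage. Sct, the hormone that drives bicarbonate secretion by the pancreas, was 977 in WT and 627 in KO, or 1.56-fold lower (-0.64). Each of the 3 passed 2-fold under the spike-in scaling and under none of the other 5. With the spike-ins, 677 of 12996 genes were at least 2-fold lower.

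The promoters of these 5 genes are shown with that of Tac1, the single member at or above the floor with a higher intensity in KO, because the genes of this lineage differed by unlike amounts and these are the sequences next to their starts. They are the 250 bases before the RefSeq start in the mouse build GRCm38.p6, written 5′ to 3′ on the strand of the gene, at chr2:62483654-62483903 (minus strand) for Gcg, chr10:102490419-102490668 (minus strand) for Nts, chr12:102554691-102554940 (plus strand) for Chga, chr2:132781392-132781641 (plus strand) for Chgb, chr7:141279134-141279383 (minus strand) for Sct, and chr6:7554811-7555060 (plus strand) for Tac1. Capitals mark TATAAA, the core of a TATA box, and TGACG, the first letters of the cAMP response element TGACGTCA, on either strand.
Gcg: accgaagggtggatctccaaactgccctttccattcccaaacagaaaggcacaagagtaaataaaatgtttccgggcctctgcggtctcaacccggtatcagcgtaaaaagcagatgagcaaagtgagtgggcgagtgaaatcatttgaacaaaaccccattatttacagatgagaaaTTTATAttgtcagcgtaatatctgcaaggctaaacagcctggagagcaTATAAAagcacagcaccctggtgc
Nts: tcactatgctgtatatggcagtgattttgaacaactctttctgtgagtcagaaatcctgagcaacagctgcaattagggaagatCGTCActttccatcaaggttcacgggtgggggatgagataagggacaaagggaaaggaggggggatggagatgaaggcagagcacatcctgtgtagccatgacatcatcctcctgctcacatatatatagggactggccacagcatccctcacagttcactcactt
Chga: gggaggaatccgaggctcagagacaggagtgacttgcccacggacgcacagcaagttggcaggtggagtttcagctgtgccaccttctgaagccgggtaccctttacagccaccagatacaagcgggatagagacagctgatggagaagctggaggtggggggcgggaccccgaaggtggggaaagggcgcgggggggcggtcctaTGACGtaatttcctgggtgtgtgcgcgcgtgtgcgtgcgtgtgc
Chgb: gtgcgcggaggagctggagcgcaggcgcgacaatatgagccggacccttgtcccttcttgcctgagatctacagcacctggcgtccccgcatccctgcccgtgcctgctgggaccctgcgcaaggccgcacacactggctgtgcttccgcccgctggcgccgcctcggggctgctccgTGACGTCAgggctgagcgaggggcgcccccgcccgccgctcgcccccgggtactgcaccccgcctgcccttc
Sct: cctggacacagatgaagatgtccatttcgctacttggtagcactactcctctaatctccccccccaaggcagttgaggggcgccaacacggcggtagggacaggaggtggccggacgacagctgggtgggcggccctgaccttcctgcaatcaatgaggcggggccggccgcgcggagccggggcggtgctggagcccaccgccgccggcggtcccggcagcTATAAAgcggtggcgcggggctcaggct
Tac1: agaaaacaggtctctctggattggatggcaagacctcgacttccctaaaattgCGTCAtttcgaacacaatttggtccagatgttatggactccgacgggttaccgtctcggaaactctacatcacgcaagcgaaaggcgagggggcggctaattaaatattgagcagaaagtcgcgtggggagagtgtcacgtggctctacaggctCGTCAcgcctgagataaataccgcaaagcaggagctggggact
All 10 genes matched a RefSeq promoter, with 12 windows in all since Pyy and Insl5 have a second start. The full element TGACGTCA was in 2 of the 12 windows (Chgb, where it begins 72 bases before the start, and Sst, 48 bases before), against 1.55% of 32851 promoter windows of this length. The shorter TGACG, which the full element contains, was in 6 of 12 (those of Cck, Chga, Chgb, Nts, Sst, and Tac1), against 17.8%. TATAAA was in 4 of 12 (Gcg, Sct, and both starts of Insl5), against 12.4%. The shorter element was thus found in promoters of genes with a lower intensity in KO (Nts, Chga, Chgb, and Sst) and in that of Tac1. It was also in that of Cck, which was under the floor. It was absent from those of Gcg and Sct, also lower in KO, and from those of Pyy and Insl5. These matches are letters in a window and were not set against binding of any factor.

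The other L cell hormones differed far less than Gcg. Pyy, the peptide that slows transit and appetite, was 2046 in WT and 2033 in KO, a difference of -0.01, and the sign of it changed with the scaling (from -0.51 to 0.08, above 0 under 2 of the 6). Insl5, the insulin-like peptide of colonic L cells, was 573 in WT and 503 in KO, or 1.14-fold lower (-0.19). The gap between Gcg and Pyy was -0.98, and that between Gcg and Insl5 was -0.81. These gaps hold under any constant scaling of the arrays, and quantile normalization gave -0.97 and -0.78. For comparison, over 4529 genes read by at least 2 probe sets above the floor on both arrays, the differences of the brightest and the next probe set of the same gene lay a median of 0.17 apart, and 95% lay within 0.57. The hormones that L cells share were not lower by the same amount in these pools. The gap between probe sets measures their disagreement on these arrays and not the spread between mice or pools.

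Sst, the inhibitory peptide of D cells, was 921 in WT and 790.3 in KO, or 1.17-fold lower (-0.22). This was close to Insl5, the gap between them being 0.03, and far under the difference of Gcg. Cck, which empties the gall bladder, was 126 in WT and 93.5 in KO. Neither value reached the floor as deposited, so no fold is given. Cck did reach it with the same median (-0.51), the epithelial markers (-0.47), quantile normalization (-0.52), and the spike-ins (-0.93). Its difference was below 0 under all 6 scalings. The probe set of Cck can match several transcripts of the gene, as can that of Gcg.

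Tac1 ran the other way. Its brighter probe set was 946 in WT and 1299.8 in KO, or 1.37-fold higher (0.46), and its dimmer probe set, under the floor in both pools, was 63.1 and 91.5. The difference of the brighter one was above 0 under 5 of the 6 scalings and -0.04 with the spike-ins. The gap between Gcg and Tac1 was the widest among the 9 genes, at -1.45, and those of Chga and Chgb to Tac1 were -1.06 and -1.11.

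**Figure D2:**
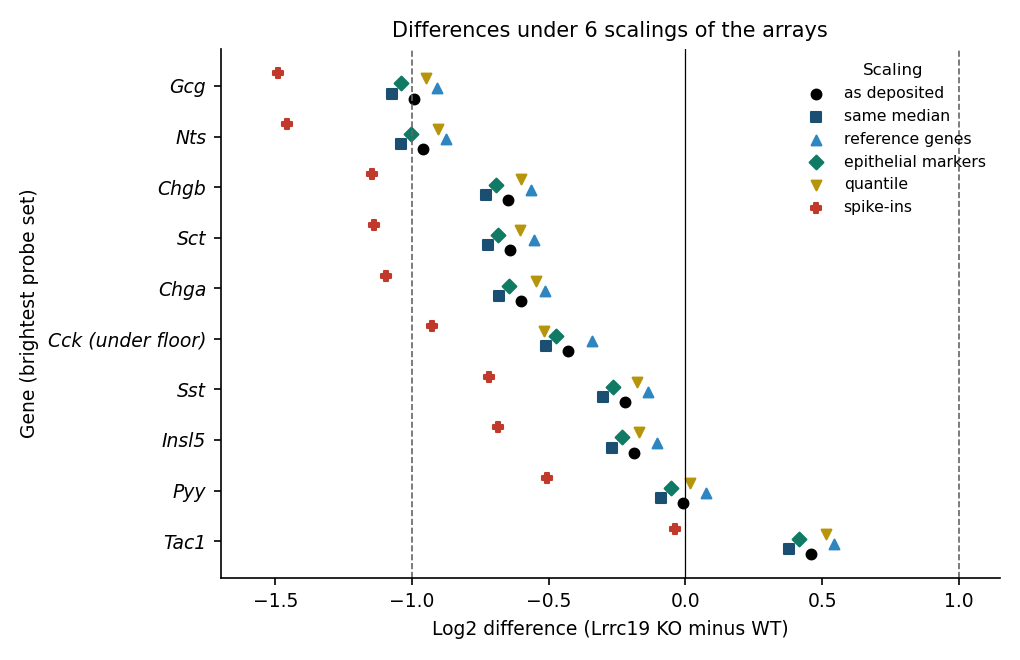
Log2 difference (Lrrc19 KO minus WT) of the brightest probe set of each of the 10 genes (rows) under 6 scalings of the arrays (symbols), with 1 array per genotype. Dashed lines are 2-fold. The order of the genes stays similar while the whole set moves to the left with the spike-ins, where Gcg reaches -1.49, Tac1 turns to -0.04, and Pyy to -0.51.

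The differences were also set beside those of the 1000 genes closest in mean intensity, a spread that holds array noise and real differences alike. Of these 1000, 8 were at least as far below 0 as Gcg, 5 as Nts, 24 as Chgb, 31 as Sct, and 52 as Chga, whereas 260 were as far as Insl5, 250 as Sst, and 535 as Pyy. On the upper side, 56 were at least as far above 0 as Tac1. Gcg, Nts, and Chgb lay outside the central 95% of their neighbors, from -0.77 to 0.60, -0.62 to 0.61, and -0.63 to 0.61, respectively. The other 6 lay inside theirs, so that the differences of Sct, Chga, Insl5, Sst, Pyy, and Tac1 were within the usual spread of genes of like intensity on these arrays.

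**Figure D3:**
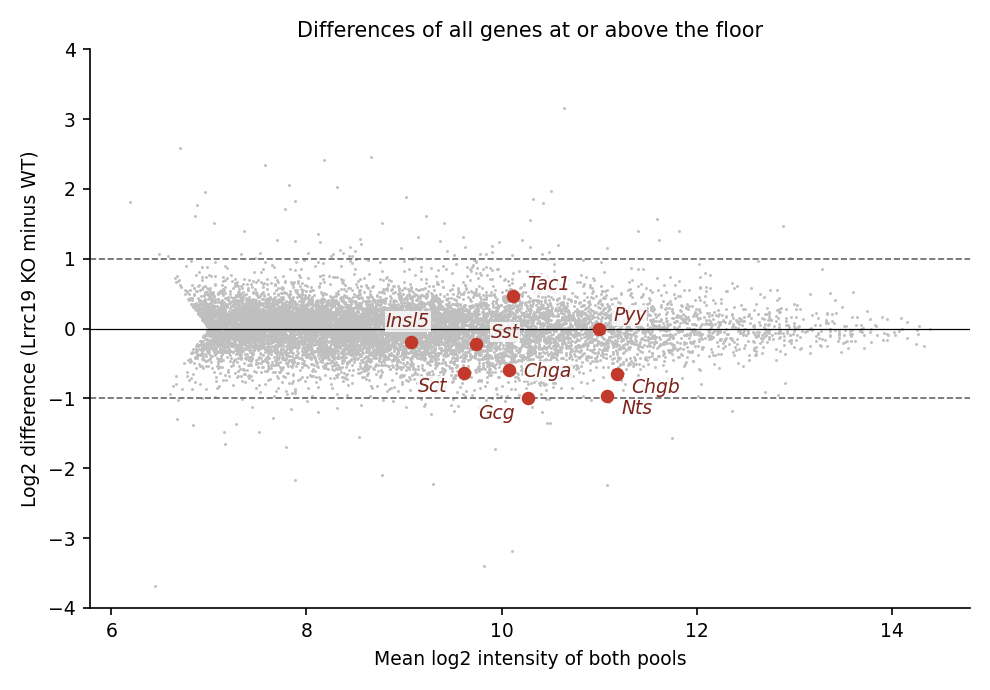
Log2 difference (Lrrc19 KO minus WT, as deposited) against the mean log2 intensity of both pools for the 12518 genes at or above the floor (grey), with 9 hormone and granin genes in red and 1 array per genotype. Dashed lines are 2-fold. Gcg (-0.99) and Nts (-0.96) lie at the lower edge of the grey cloud, Pyy (-0.01) lies at its center, and Tac1 (0.46) lies above 0, which it did not with the spike-in scaling (-0.04).

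Other genes of the enteroendocrine program were compared from lists. Of 25 transcription factors of the lineage on the array, 12 reached the floor and none passed 2-fold (median -0.15, below 0 under all 6 scalings). The lowest were Neurog3, which commits crypt progenitors to the endocrine fate, at 144 in WT and 88.4 in KO, the latter under the floor, and Atoh1, which opens the secretory fate for goblet, Paneth, and endocrine cells, at 2207 and 1434 (-0.62). Neurod1, which acts after Neurog3, was 258 and 224 (-0.20). The highest were Tox3 (0.18) and Neurod2 (0.16).

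Serotonin genes showed little difference besides Tph1. This gene, the rate-limiting enzyme of gut serotonin synthesis and a marker of enterochromaffin cells, was 206 in WT and 137 in KO, a difference of -0.59. The decarboxylase Ddc was at -0.13, Gch1, which makes the cofactor of Tph1, at 0.20, and the serotonin transporter Slc6a4 was 126 in WT, under the floor, and 143 in KO. Of the 9 on the array, 8 reached the floor, none passed 2-fold, and the median was 0.01 (-0.49 with the spike-ins). The enterochromaffin markers Tph1 and Tac1 thus had differences of opposite sign as deposited, though not with the spike-ins.

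Among other granins and genes of granules and prohormone processing, 22 of 27 reached the floor. Of these, Ptprn2, a transmembrane protein of dense-core granules, passed 2-fold (819.6 against 405, or 2.02-fold lower in KO) and none was higher by as much. Its other probe set, under the floor, was 84.2 and 96.0. Pcsk1, the convertase that cuts GLP-1 out of proglucagon in L cells, was 182 in WT and 101 in KO, the latter under the floor. The highest were the amidating enzyme Pam (1480.0 in WT and 2259 in KO, 0.61) and the granule GTPase Rab3c (0.53). The granin Scg2 was 488 and 682 (0.48), and the processing carboxypeptidase Cpe was 3056 and 4234 (0.47). Scg3, a further marker of enteroendocrine cells, was 348 in WT and 393 in KO (0.17). The list had a median of 0.14 as deposited (16 above 0 and 6 below), which was -0.36 with the spike-ins. Chga and Chgb stood apart from Scg2, the highest granin of this list, by -1.08 and -1.13 under any constant scaling. Scg3 was closer to them than Scg2 was.

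Of 18 other gut peptides on the array, 10 reached the floor and none passed 2-fold on its brightest probe set. Gip and Gast, the hormones of K cells and of gastric G cells, were under the floor in both pools. Ghrl (ghrelin) was 216 in WT and 267 in KO (0.31). By the brightest probe sets, the largest differences were those of Calcb, a calcitonin gene-related peptide of sensory and enteric neurons (256 against 493, or 1.93-fold higher in KO), Nmu, neuromedin U (479 and 712, a difference of 0.57), and Guca2b, uroguanylin (637 and 398, -0.68). Iapp, amylin, was read differently by its 4 probe sets. The brightest by the mean of both pools was 173 in WT and 159 in KO (-0.12), but the other 3 were 273 and 88.0, 209 and 64.95, and 229 and 101, each above the floor in WT and under it in KO, so that its direction was shared but its size rests on the probe set. The neuronal peptides Vip (782 and 946) and Penk (578 and 758) were at 0.28 and 0.39. The median was 0.23 as deposited and -0.30 with the spike-ins.

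Nutrient sensors of enteroendocrine cells held 1 gene past 2-fold in each direction. Ffar4, the receptor for long-chain fatty acids that triggers GLP-1 release, was 551 in WT and 259 in KO, which is 2.13-fold lower. Ffar2, the receptor for short-chain fatty acids, was 590.5 and 438 on its brighter probe set (-0.43) and 428 and 284 on the other (-0.59). The peptide transporter Slc15a1 was 270.1 in WT and 1001 in KO, which is 3.71-fold higher, a gene that absorptive cells also express. The calcium-sensing receptor Casr was 116 in WT, under the floor, and 145 in KO. Of the 21 on the array, 13 reached the floor, with a median of 0.09 (-0.43 with the spike-ins).

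The receptors of these hormones were mostly dim. Of 23 receptors and cleaving enzymes on the array, 15 were under the floor in both pools, among them Glp1r, Sctr, Ntsr1, Npy1r, and Tacr1, and none of the other 8 passed 2-fold (median -0.01). The lowest were the somatostatin receptor Sstr2 (149 in WT and 109 in KO, the latter under the floor) and the neurotensin receptor Ntsr2 (210.2 and 159, -0.40). The cholecystokinin receptor Cckar was 226 and 264 (0.22, below 0 with the spike-ins), and the glucagon receptor Gcgr was 123 in WT, under the floor, and 146 in KO. Dpp4, the protease that inactivates GLP-1, was 340.4 and 259 (-0.40).

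**Figure D4:**
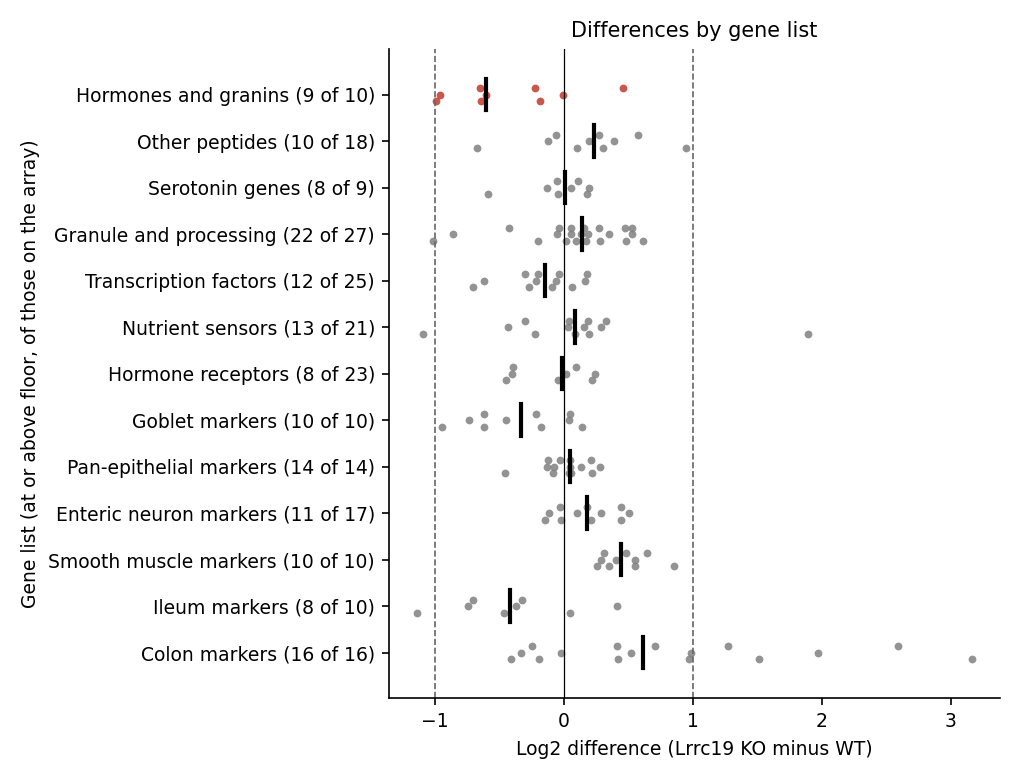
Log2 difference (Lrrc19 KO minus WT, as deposited) of single genes at or above the floor (points) in 13 lists, with the number at the floor and on the array in parentheses, black bars for the list median, and 1 array per genotype. Dashed lines are 2-fold. The hormones and granins (red, median -0.60), ileum markers (-0.42), and goblet markers (-0.33) lie to the left, whereas smooth muscle (0.44) and colon (0.61) markers lie to the right. With the spike-ins smooth muscle moves to -0.06.

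Markers of other cells that could carry these transcripts or change their share were read in the same pools. Of 14 pan-epithelial markers, all reached the floor and none passed 2-fold, with a median of 0.04 and a summed intensity of 125202 in WT and 126897 in KO. Epcam was 12473 and 12915. Goblet cell markers, which share the secretory fate, had a median of -0.33 over 10 of 10 genes (summed 76471 and 65514), and the median was below 0 under all 6 scalings. As deposited, 7 of the 10 were below 0, with Agr2 at -0.95, Spdef at -0.74, and Muc2 at -0.22, and 3 were above, namely Fcgbp at 0.14, Zg16 at 0.05 (-0.26 and -1.12 on its other probe sets), and Clca1 at 0.04. The 5 of 8 tuft cell markers at the floor had a median of 0.16 (-0.38 with the spike-ins). The part of a general difference in secretory cells in the values of the hormone genes was not tested.

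Cells from outside the epithelium were present too. All 10 smooth muscle markers reached the floor and were brighter in KO (0.26 to 0.85, summed 60220.3 in WT and 80204 in KO), with a median of 0.44 as deposited and -0.06 with the spike-ins. Enteric neuron markers had 11 of 17 genes at the floor, a summed level of 3729.6 in WT and 4175 in KO, and a median of 0.18 (-0.40 with the spike-ins). As deposited, 7 of the 11 were above 0 and 4 (Elavl4, Elavl3, Phox2a, and Nefl) were below. The pan-neuronal gene Elavl4 was 237 and 233 on its brightest probe set, though 162 and 253 (0.65) on another and 90.3 and 145 on the dimmest, and Uchl1 was 271 and 291. Prph (0.51) and Ret (0.44) were the highest, Phox2a (-0.15) was the lowest, and the cholinergic markers Chat, Slc18a3, and Slc5a7 were under the floor. Tac1, Vip, Penk, and Calcb, which enteric neurons express, had differences above 0 as deposited, as had the median of these markers. Nts and Sst, which also occur in neurons, were below 0 (-0.96 and -0.22), and Cck was under the floor. The part of neurons or muscle in the value of Tac1 was not tested. Of 8 islet markers on the array, Ppy (135 and 148) and Iapp reached the floor, the latter with the unlike probe sets given above, and Ins2 was under it in both pools (75.6 and 65.7). Of 12 acinar markers, 6 reached it, Cpa1 and Cpb1 did not, and Spink1 was 2.30-fold higher in KO.

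Regional markers were read because some of these hormones are made in certain segments of the gut. Colon markers had a median of 0.61 over 16 of 16 genes (0.12 to 0.70 over the scalings), with Atp12a, Hoxd13, Tgm3, Hoxb13, and Aqp8 at least 2-fold higher in KO and none lower by as much. Of the 16, 5 were below 0 as deposited (Mettl7b at -0.41, Ly6g6c at -0.33, Car1 at -0.25, Cyp2c55 at -0.19, and B3galt5 at -0.03). Hoxd13 was under the floor in WT, and its dimmer probe set, never at the floor, was lower in KO (70.5 and 57.0). Several of these were put on the list with their values known, so the count is a description. Ileum markers had a median of -0.42 over 8 of 10 genes (-0.87 to -0.33), with Osr2 at 2.20-fold lower, though its second probe set ran the other way (126 and 142), and the bile acid binding protein Fabp6 at -0.74. Of these 8, 6 were below 0 as deposited and 2 above (Clec2h at 0.41 and Nr1h4 at 0.05), and the summed intensity of the list was 9094 in WT and 8942 in KO. For the proximal small intestine the median was 0.06 over 9 of 14 markers (-0.51 with the spike-ins). Beside these medians, the ileal hormone Nts was at -0.96 and the colonic hormone Insl5 at -0.19. The part of the sampled segment in the values of the hormone genes was not tested.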

How the data were processed

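RNA of gut epithelial cells pooled from 5 mice was hybridized to 1 Affymetrix mouse genome array for each genotype. The values deposited by the authors are linear intensities, although RMA, the tool in the submitters' processing notes, normally yields log2 values. The scaling of the arrays is not stated in the study text used here. Values below 1 were raised to 1 before log2 was taken (Python 3.11.15, pandas 2.3.3). Of 45037 probe sets that were not controls, 34945 carried 1 symbol in the platform annotation, of which 34741 had an identifier in the RefSeq table of GRCm38.p6 through which symbols were updated, 932 carried several, and 9160 were unnamed here. A gene was read from its brightest probe set. The 50th percentile of these probe sets on both arrays was the floor, and log2 differences of 1 or more either way were counted as 2-fold. Single arrays allowed no test.

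The members and gene lists were chosen with earlier results of these data known. Outside the members, the genes named are those of each list past 2-fold, the most extreme in either direction, and leading markers of other cells. Other genes were chosen after their values were seen. Alternatives were 5 scalings (same median, 8 reference genes, 18 spike-in probe sets, 14 epithelial markers, and quantile normalization), 2 probe set rules, 2 other floors, and raising values to the floor. The counting was tested on simulated data with larger changes than those of the members and less noise than the spread over all genes. That test checks the code and not calls of the size reported here.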

Additional observations from a re-analysis of the deposited data

How the results depend on the processing

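The number of hormone and granin genes past 2-fold, 0 as deposited, was 2 when the arrays were given equal medians and 2 when they were centred on the epithelial markers (Gcg and Nts in both), and 5 with the spike-ins. Over all genes the counts were 129 of 12523, 128 of 12513, and 699 of 12996 under these scalings, in the same order. A limit of 1.5-fold was added after the values were seen. The number past it was 5 of 9 as deposited, 2 of 9 with the reference genes, and 8 of 10 with the spike-ins. As deposited, 3.40% of all genes were lower and 2.78% higher by that much. The share of all genes was not computed for the other scalings. The median of the members was -1.01 with the spike-ins and within 0.27 (the robust SD over all genes) of -0.60 under the other alternatives. Of 94 values of single members under the alternatives, 84 moved by less than 0.27 and the 10 that moved by more were all with the spike-ins. This count was largely fixed in advance and is no measure of robustness. A constant scaling moves every member by the same amount, and the floors leave the value of a member at the floor unchanged. Where a value remained, the probe set rules could change that of Tac1 alone, the member with 2 probe sets. Without probe sets that can match several transcripts, Gcg and Cck had no value. Over the whole array, 121 genes passed 2-fold (70 higher and 51 lower), against 699 with the spike-ins (22 and 677) and 182 with no floor. The split was 53 and 76 with the same median and 93 and 35 with the reference genes. No paired analysis was possible because each genotype had 1 array.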
